A study of Homo sapiens with 24 samples.

Results

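Transcript levels of 8 genes of non-homologous end joining were followed in A549, an established human cell line from a lung adenocarcinoma. They are the 8 rows named XRCC6, XRCC5, PRKDC, LIG4, XRCC4, NHEJ1, DCLRE1C and PAXX among the 60609 gene rows of the deposited table. XRCC6 was selected on its own TPM, which was lower with an siRNA against BOP1, so its siRNA differences are given as a description with no test. The other 7 were chosen by their role in the same pathway. All 8 reached the level at which genes were tested, 1 TPM in at least 3 libraries. TPM is transcript abundance per transcript length, scaled to a fixed total in each library.

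Every group received an siRNA for 48 h: a pool against BOP1 (siBOP1), a ribosome biogenesis factor, or an siRNA against firefly luciferase (siFLuc), an insect gene, as the control. A mock treatment or 1000 U/mL of interferon beta (IFN) followed, and cells were harvested 8 h or 12 h later. The 8 groups of siRNA, treatment and time hold 3 libraries each, 24 in all, and no group received no siRNA. The labels do not say whether the libraries of a group came from separate cultures, so p-values measure only the spread between these libraries. The libraries of each group are numbered 1, 2 and 4 in the table, and values are given below in that order.

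Non-homologous end joining rejoins the ends of a broken DNA double helix without a template. Ku, a ring of Ku70 (XRCC6) and Ku80 (XRCC5), slides onto the ends first and recruits the kinase DNA-PKcs (PRKDC), which with the nuclease Artemis (DCLRE1C) opens and trims them. DNA ligase IV (LIG4) with its partner XRCC4 then seals the break, helped by XLF (NHEJ1) and PAXX. Human cells are known for an abundant Ku protein, and lymphocytes also use the pathway to join the cuts of V(D)J recombination.

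Both siRNA labels and IFN labels could be checked. BOP1 stood at 32.4 to 78.8 TPM in the 12 siFLuc libraries and at 10.0 to 19.5 TPM in the 12 siBOP1 libraries, so the ranges did not overlap. The interferon-induced genes IFIT1, MX1 and ISG15 stayed at or under 13.95 TPM in mock libraries, while under IFN the lowest value of any of them was 553.5 TPM. Epithelial and A549 marker genes (KRT8, KRT18, EPCAM, AKR1B10 and AKR1C1) summed to 7530 to 9189 TPM, and endothelial markers (PECAM1, CDH5 and VWF) to at most 0.426 TPM. EPCAM added little to the first sum, at 1.92 to 5.48 TPM, while each of the others in it stood at 484 TPM or more. Between 13844 and 14509 genes per library reached 1 TPM, and the sequencing depth behind these values is unknown. In bulk RNA, fewer cells that express a gene and less of its RNA per cell cannot be told apart.

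A pair of XRCC6 sequences frame its values, one from its 5′ side and one from its 3′ end. XRCC6 (ENSG00000196419.12) lies on chromosome 22 from 41621119 to 41664048 on the plus strand in GENCODE 29 on GRCh38. Its start faces that of DESI1, a gene on the minus strand, and the starts lie 23 bases apart in GENCODE 29 and 252 bases apart in RefSeq (GRCh38.p14). The RefSeq promoter windows of the genes, 300 bases each, share 249 bases. The 250 bases before the RefSeq start of XRCC6 (chr22:41621045-41621294, plus strand) are shown because, by the RefSeq starts, both genes are read outward from them. The GENCODE 29 starts, 41621119 for XRCC6 and 41621096 for DESI1, lie inside this stretch. Capitals mark the 3 GC boxes (GGGCGG, searched on both strands), short GC-rich motifs bound by Sp1-type factors:
XRCC6 promoter: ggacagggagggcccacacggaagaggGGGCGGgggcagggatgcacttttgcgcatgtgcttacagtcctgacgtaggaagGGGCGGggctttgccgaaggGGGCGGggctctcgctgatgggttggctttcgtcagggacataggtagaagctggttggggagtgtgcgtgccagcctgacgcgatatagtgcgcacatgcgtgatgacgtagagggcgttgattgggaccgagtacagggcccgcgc

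Of 34796 RefSeq promoter windows of that length, 44.9% hold a GC box, 34.6% hold CCAAT and 3.57% hold the core of the interferon response element, GAAA and GAAA with any 2 bases between them (each searched on both strands). The XRCC6 window holds CCAAT 1 time and the interferon response core 0 times. None of the windows found for LIG4, XRCC4, NHEJ1, DCLRE1C and PAXX holds that core either. No window was matched for XRCC5 or PRKDC.

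The sequence at the other end is the 7-base word GCCAGTT, which earlier work on these same values had singled out among transcripts lower with siBOP1. It is shown because XRCC6 is the one member of the 8 that carries it. The word and XRCC6 were both chosen on these values, so this match is a description and a link was not tested. The longest annotated 3′ UTR of XRCC6 has 233 bases and holds it 1 time, beginning at base 63 after the stop codon. Its surroundings (chr22:41663866-41663895, GRCh38, GENCODE 29 transcript, plus strand) read as follows, with the word in capitals:
XRCC6 3′ UTR site: gccttgtcctcaGCCAGTTaaaatgtgttt

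The 3′ UTRs of the other 7 members, from 171 bases in PAXX to 1805 bases in DCLRE1C, hold 0 copies. Of the 8 members 12.5% thus hold at least 1 copy, near the 11.8% among 12550 tested genes with an annotated 3′ UTR. The siRNA sequences were not used here, so no match of an siRNA to this word was tested.

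XRCC6 was the most abundant of the 8 transcripts in control cells and was lower with siBOP1 in every group. In mock cells at 8 h it measured 306, 289.5 and 315 TPM with siFLuc and 114, 113 and 110.5 TPM with siBOP1. In mock cells at 12 h the values were 292, 309 and 343 TPM with siFLuc and 125, 109 and 102 TPM with siBOP1. The siBOP1 libraries were thus the lower ones at both times, and the groups did not overlap. Under IFN at 8 h XRCC6 stood at 297, 276 and 273 TPM with siFLuc and at 128, 99.1 and 111 TPM with siBOP1. Under IFN at 12 h it stood at 276, 207 and 282 TPM with siFLuc and at 130.1, 100.3 and 116 TPM with siBOP1. The gap was narrowest here, where the siFLuc library numbered 2 was the lowest control, and again the groups did not overlap.

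**Figure D1:**
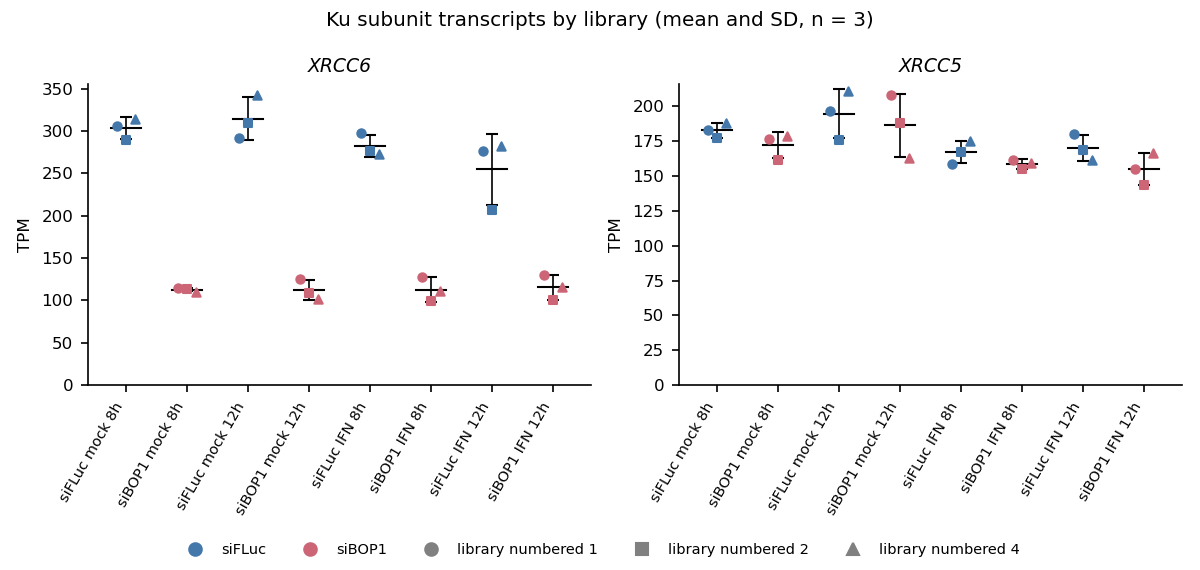
Each panel plots TPM (vertical axis, starting at 0) of a Ku subunit in every library, by group; points are libraries, horizontal bars are group means and error bars are the SD (n = 3). XRCC6 lies at 207 to 343 TPM in the 12 siFLuc libraries and at 99.1 to 130.1 TPM in the 12 siBOP1 libraries, while XRCC5 spans 143 to 211 TPM with both siRNAs mixed.

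As group means, XRCC6 went from 303 ± 12.8 TPM (SD, n = 3) to 113 ± 1.91 TPM (SD, n = 3) in mock cells at 8 h, or to 37.1% of control. The mean was 35.5% of control in mock cells at 12 h, 39.98% under IFN at 8 h and 45.2% under IFN at 12 h. On the log2(TPM + 1) scale the differences were -1.42, -1.49, -1.32 and -1.13 in that order, each with a standard error of 0.12 from limma. Fold changes on this scale understate the change of genes with low TPM. The level left with siBOP1 was much the same in all 4 conditions, with means of 113, 112, 113 and 115 TPM, whereas the control mean ranged from 255 to 314 TPM. Since these differences chose the gene, the shares of all 16062 tested genes that passed the limma threshold (adjusted p under 0.05) are given without reading anything from them: 2.16% in mock cells at 8 h, 1.6% at 12 h, 2.0% under IFN at 8 h and 0.66% at 12 h.

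XRCC5, the partner subunit, did not pass the threshold in any of these 4 comparisons. It measured 183, 177 and 188 TPM with siFLuc and 177, 162 and 179 TPM with siBOP1 in mock cells at 8 h. At 12 h the mock values were 196, 176 and 211 TPM with siFLuc and 208, 188 and 163 TPM with siBOP1. Under IFN the siFLuc values were 159, 168 and 175 TPM at 8 h and 180.1, 169 and 162 TPM at 12 h. The siBOP1 values under IFN were 162, 155 and 159 TPM at 8 h and 155, 143 and 167 TPM at 12 h. The groups overlapped in all 4 comparisons.

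The log2 differences of XRCC5 were -0.08, -0.07, -0.07 and -0.14 (standard error 0.09 each), with adjusted p from 0.743 to 0.827. The 95% interval at 8 h in mock cells ran from -0.27 to 0.10, and the lowest bound in the 4 comparisons was -0.32, under IFN at 12 h. The difference between XRCC5 and XRCC6 was not tested.

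Because each Ku ring has 1 of each subunit, the ratio of XRCC6 to XRCC5 TPM was taken in each library. With siFLuc it averaged 1.66 ± 0.023 and 1.62 ± 0.134 (SD, n = 3) in mock cells at 8 h and 12 h, and 1.69 ± 0.160 and 1.50 ± 0.263 (SD, n = 3) under IFN. With siBOP1 it averaged 0.655 ± 0.042 and 0.601 ± 0.022 (SD, n = 3) in mock cells and 0.709 ± 0.077 and 0.744 ± 0.083 (SD, n = 3) under IFN. The lowest siFLuc library stood at 1.22 and the highest siBOP1 library at 0.840, so XRCC6 was above XRCC5 in all 12 control libraries and below it in all 12 siBOP1 libraries. The ratio is one of RNA levels and says nothing of the protein, and its shift follows from the choice of XRCC6.

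None of the other members passed the test between the siRNAs. Of the 7 tested, 0 passed the limma threshold in each of the 4 siRNA comparisons, against only 2.16%, 1.6%, 2.0% and 0.66% of all genes. At an unadjusted p under 0.05, 0 of the 7 passed. The share of all genes at that unadjusted threshold was not counted, here or below. With the library number as a block 0 passed, against blocked shares of 8.49%, 7.66%, 8.81% and 3.77% of all genes. Leaving XRCC5 aside, the log2 differences of the 6 others lay between -0.33 (DCLRE1C, IFN, 8 h; standard error 0.31) and 0.40 (DCLRE1C, mock, 8 h; standard error 0.31). The lowest adjusted p among these 24 values was 0.486, for XRCC4 in mock cells at 8 h. The median over the 7 was 0.01, -0.07, -0.12 and -0.14 in the 4 comparisons, beside 0.03, 0.00, -0.01 and -0.01 for all genes tested.

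The kinase gene PRKDC (chromosome 8, 47773108 to 47960183, minus strand) showed means of 41.2 to 54.1 TPM over the 8 groups. It measured 63.9, 49.6 and 47.1 TPM with siFLuc and 66.3, 43.9 and 52.2 TPM with siBOP1 in mock cells at 8 h, so the groups overlapped. Its siRNA difference there was 0.01 (standard error 0.19), with an interval from -0.39 to 0.41 that is wide beside that of XRCC5. Libraries of 1 group differed by up to a coefficient of variation of 25.8%, under IFN at 8 h with siFLuc.

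The ligase gene LIG4 (chromosome 13, 108207439 to 108218368, minus strand) was the lowest of the 8 in 7 of the 8 groups, with all 24 libraries between 5.11 and 7.43 TPM. Its partner XRCC4 (chromosome 5, 83077498 to 83353787, plus strand) ranged from 10.5 to 17.2 TPM. In mock cells at 8 h XRCC4 measured 10.5, 11.3 and 13.4 TPM with siFLuc and 14.2, 14.7 and 14.3 TPM with siBOP1. These groups did not overlap, but the difference of 0.28 (standard error 0.15) did not pass the test (adjusted p = 0.486). The share of all genes whose groups do not overlap is not given, here or below, so a lack of overlap is only a description. The stimulating factor NHEJ1 (chromosome 2, 219075317 to 219160865, minus strand) stayed between 8.09 and 12.5 TPM, and its siRNA differences ran from -0.26 under IFN at 12 h to 0.01 in mock cells at 8 h.

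**Figure D2:**
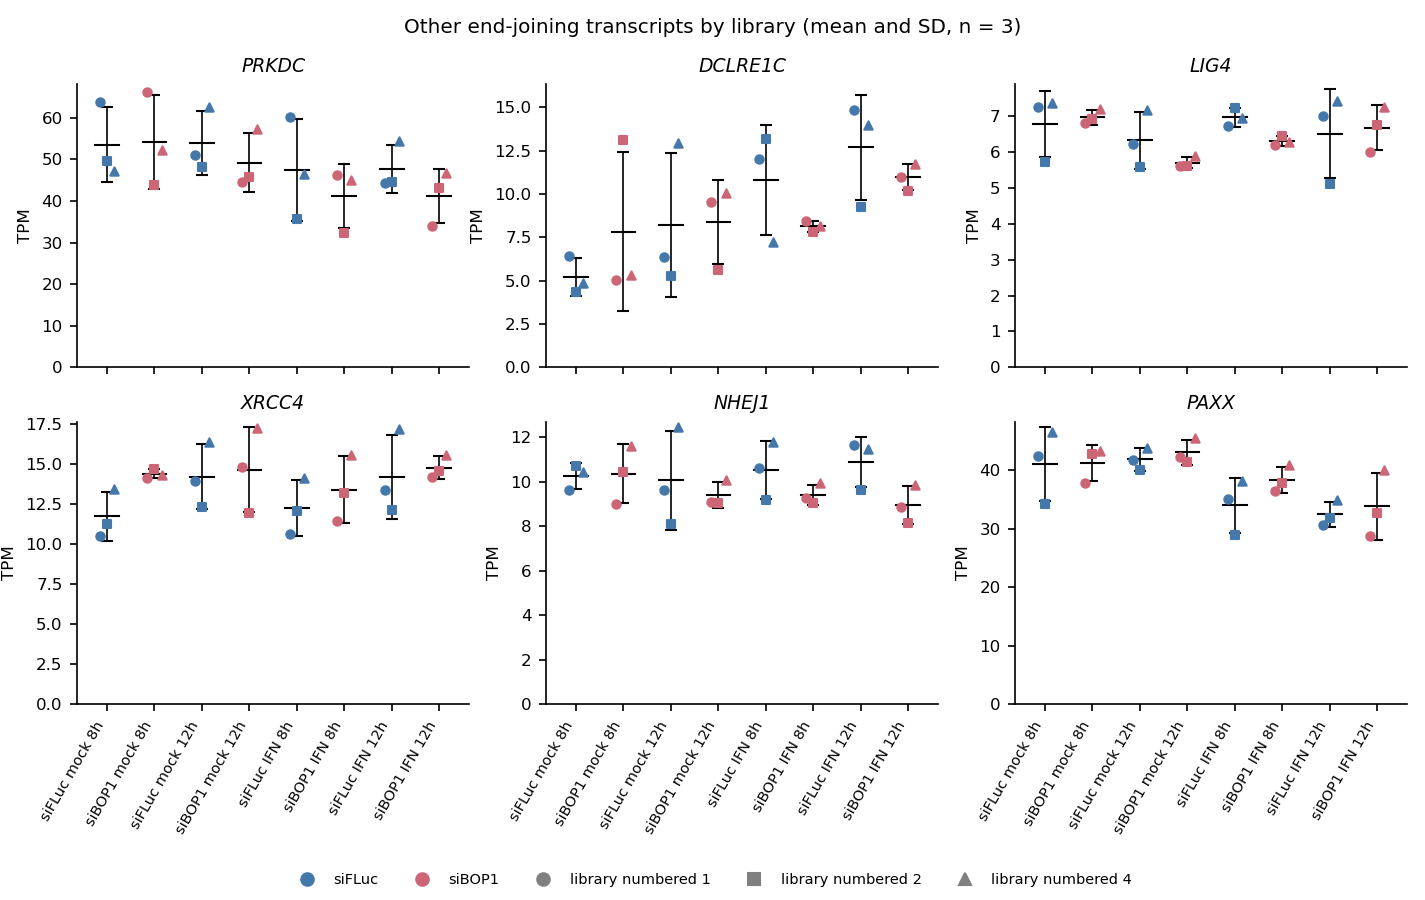
TPM (vertical axes, starting at 0) of the 6 other end-joining transcripts in every library, by group; points are libraries, horizontal bars are group means and error bars are the SD (n = 3). LIG4 stays within 5.11 to 7.43 TPM, PAXX is lower under IFN than in mock cells at 12 h, and single libraries of DCLRE1C stand far from their group, such as 13.1 TPM beside 5.05 and 5.30 TPM with siBOP1 in mock cells at 8 h.

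Ordered by mean TPM, the 8 transcripts ran XRCC6, XRCC5, PRKDC, PAXX and XRCC4 in each siFLuc group, and XRCC5, XRCC6, PRKDC, PAXX and XRCC4 in each siBOP1 group. XRCC6 and XRCC5 did not overlap in any group, and neither did PAXX and XRCC4. PRKDC and PAXX overlapped in 4 of the 8 groups: with siFLuc under IFN at 8 h, and with siBOP1 in mock cells at 12 h and under IFN at both times. Below XRCC4 the order of NHEJ1, DCLRE1C and LIG4 changed from group to group. DCLRE1C was the last of the 8 with siFLuc in mock cells at 8 h, at 5.21 ± 1.08 TPM (SD, n = 3), and the sixth under IFN with siFLuc, where it overlapped both neighbours in the order.

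Under IFN 1 of the 8 members, XRCC5, passed the limma threshold, in 1 of 4 comparisons. With siFLuc at 8 h 0 of the 8 members passed the limma threshold, against 10.8% of all genes tested (5.77% higher and 5.07% lower). At an unadjusted p under 0.05, for which no share of all genes was counted, PAXX and DCLRE1C passed. With the library number as a block DCLRE1C alone did, against a blocked share of 21.0% of all genes. With siFLuc at 12 h 0 of 8 passed, against 13.5% of all genes (7.06% higher and 6.43% lower). XRCC5, PAXX and XRCC6 passed there at an unadjusted p, and PAXX and XRCC6 with the block, against 26.9%.

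With siBOP1 at 8 h 0 of 8 passed, against 15.1% of all genes (5.99% higher and 9.11% lower). There 0 passed at an unadjusted p under 0.05 in limma, and PRKDC passed with the block, against 29.0%. With siBOP1 at 12 h XRCC5 alone of the 8 passed, and it was lower, against 14.8% of all genes (7.17% higher and 7.58% lower). XRCC5 and PAXX passed at an unadjusted p and with the block, against 27.9%. The share of members called was thus at or below that of all genes in each of the 4 comparisons without the block.

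XRCC5 fell under IFN with siBOP1 at 12 h. The mock values of 208, 188 and 163 TPM stood beside 155, 143 and 167 TPM under IFN, so libraries numbered 1 and 2 were lower under IFN and the library numbered 4 was slightly higher, and the groups overlapped. The log2 difference was -0.26 (standard error 0.09, limma adjusted p = 0.0493), and 0.0194 with the block. Of the 10 other settings 5 did not make the call (highest adjusted p 0.241), and neither did the fits without the mock library numbered 1 or 2 or the IFN library numbered 1 or 2 (highest adjusted p 0.250). In the other 3 comparisons XRCC5 differed by -0.13, -0.19 and -0.12, with adjusted p of 0.415, 0.167 and 0.401.

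XRCC6 itself did not pass the IFN test with siBOP1, at -0.01 (8 h) and 0.04 (12 h) with a standard error of 0.12 and adjusted p of 0.982 and 0.873. With siFLuc it differed by -0.11 at 8 h (adjusted p = 0.657) and by -0.31 at 12 h (adjusted p = 0.0866). The 12 h groups did not overlap, with 292, 309 and 343 TPM in mock cells and 276, 207 and 282 TPM under IFN, and with the block the adjusted p was 0.0247. Without the siFLuc IFN library numbered 2, which stood at 207 TPM, the difference moved toward 0: with each of the 6 libraries left out in turn it ran from -0.39 to -0.17, with adjusted p from 0.0444 to 0.432. The interaction, the IFN difference with siBOP1 minus that with siFLuc, was 0.35 (standard error 0.17) at 12 h. It is made of the same siRNA differences that chose XRCC6, so it is given as a description with no test.

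PAXX (chromosome 9, 136992418 to 136993984, plus strand), a small Ku-binding factor, had lower means under IFN in all 4 comparisons, although with siBOP1 at 8 h the difference turned to 0.0559 under median-of-ratios rescaling. With siFLuc at 12 h it measured 41.8, 39.99 and 43.9 TPM in mock cells and 30.7, 31.8 and 34.9 TPM under IFN. With siBOP1 at 12 h it measured 42.3, 41.4 and 45.5 TPM in mock cells and 28.8, 32.7 and 40.1 TPM under IFN. All libraries under IFN were below all mock libraries at 12 h with either siRNA, a description without the share of all genes that do the same. The log2 differences were -0.36 and -0.35 (standard error 0.12 each), and the adjusted p of 0.0619 and 0.0641 missed the threshold. With the library number as a block they were 0.0077 and 0.00874. At 8 h the groups overlapped, with differences of -0.26 with siFLuc (adjusted p = 0.214) and -0.10 with siBOP1 (adjusted p = 0.647).

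DCLRE1C (chromosome 10, 14897359 to 14954432, minus strand), the Artemis gene, had a coefficient of variation within groups from 3.78% to 58.6%. With siFLuc at 8 h it measured 6.42, 4.36 and 4.84 TPM in mock cells and 12.02, 13.2 and 7.22 TPM under IFN, and the groups did not overlap. The log2 difference of 0.90 (standard error 0.31) had an adjusted p of 0.0715, and 0.0182 with the block. With siFLuc at 12 h the mock library numbered 4 stood at 12.96 TPM beside 6.37 and 5.29 TPM, and the groups overlapped (difference 0.64, adjusted p = 0.200). With siBOP1 the differences were 0.17 at 8 h and 0.38 at 12 h (adjusted p = 0.773 and 0.482). The interaction at 8 h was -0.74 with a standard error of 0.44 and an adjusted p of 1, so a different response with siBOP1 was not shown.

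PRKDC was lower under IFN in all 12 same-numbered pairs of libraries, as were PAXX and BOP1. XRCC5 was lower in 11, XRCC6 in 8, NHEJ1 in 7, LIG4 and XRCC4 in 6 each, and DCLRE1C in 1. This count was not made over all genes, whose median difference was below 0 in each IFN comparison (-0.09, -0.06, -0.14 and -0.08). With siBOP1 at 8 h PRKDC measured 66.3, 43.9 and 52.2 TPM in mock cells and 46.3, 32.3 and 45.04 TPM under IFN. The groups overlapped. The log2 difference was -0.38 (standard error 0.19), with an adjusted p of 0.203, and 0.00541 with the library number as a block. It was -0.22 without the IFN library numbered 2 and -0.23 without the mock library numbered 1. Under median-of-ratios rescaling it was -0.23. In the other 3 IFN comparisons PRKDC differed by -0.19, -0.17 and -0.25, with adjusted p from 0.441 to 0.631. The 12 IFN differences of LIG4, XRCC4 and NHEJ1 lay between -0.12 (LIG4, siBOP1, 8 h) and 0.19 (LIG4, siBOP1, 12 h), and the lowest adjusted p was 0.369.

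**Figure D3:**
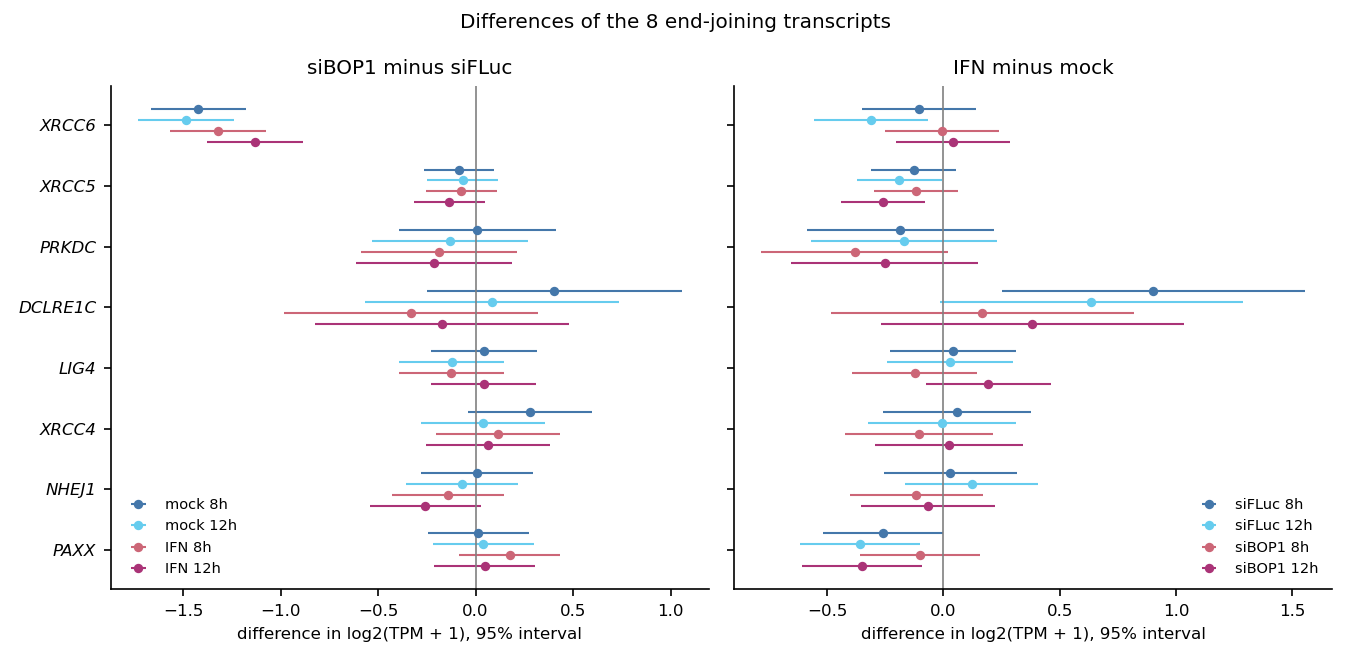
Differences in log2(TPM + 1) (horizontal axes) of the 8 end-joining transcripts, siBOP1 minus siFLuc on the left and IFN minus mock on the right; points are limma estimates, bars are 95% intervals and colours give the condition; the XRCC6 values on the left chose the gene and are a description. XRCC6 stands at -1.49 to -1.13 on the left, the other 7 lie around 0, and on the right DCLRE1C with siFLuc lies farthest from 0 (0.90 at 8 h and 0.64 at 12 h), with PAXX at -0.36 and -0.35 at 12 h.

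Between 8 h and 12 h 0 of the 8 members passed the limma threshold in any of the 4 comparisons, and 0 did at an unadjusted p under 0.05. Of all genes, 0.131% passed in siFLuc mock cells, 3.53% in siFLuc cells under IFN, 0.23% in siBOP1 mock cells and 2.96% in siBOP1 cells under IFN. The time differences of the members ran from -0.25 (LIG4, siBOP1 mock) to 0.49 (DCLRE1C, siFLuc mock). In the interaction of siRNA and IFN 0 of the 7 members other than XRCC6 passed at either time, against 0.0% of all genes at 8 h and 0.0% at 12 h. At an unadjusted p under 0.05, 0 of these 7 passed at either time. The XRCC6 interaction is made of the siRNA differences that chose the gene and is left out of these counts. With the block 0 of these 7 passed at either time.

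Of the 8 members, 4 have a protein-coding gene on the opposite strand whose start lies within 1000 bases of theirs. XRCC6 faces DESI1, a desumoylating enzyme gene, PRKDC faces the replicative helicase gene MCM4 (2 bases apart), LIG4 faces ABHD13 (11 bases apart), and XRCC4 overlaps the 5′ end of TMEM167A (starts 365 bases apart). DESI1 measured 47.4, 37.0 and 43.0 TPM with siFLuc and 37.0, 45.4 and 51.8 TPM with siBOP1 in mock cells at 8 h. The groups overlapped. Those of XRCC6 in the same libraries did not, but that gap chose XRCC6. The siRNA differences of DESI1 and XRCC6 were not compared by a test. The siRNA differences of DESI1 were 0.07, 0.10, 0.39 and 0.15 (standard error 0.18), and none passed limma's threshold (adjusted p from 0.341 to 0.956).

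MCM4, ABHD13 and TMEM167A likewise had 0 calls in the 4 siRNA comparisons. MCM4 under IFN at 8 h was the closest, at 0.45 (standard error 0.15, adjusted p = 0.145), and passed with the block (adjusted p = 0.0171). In response to IFN, DESI1 rose with siBOP1 at 8 h by 0.55 (standard error 0.18, limma adjusted p = 0.0424), from 37.0, 45.4 and 51.8 TPM to 62.6, 81.0 and 55.3 TPM, with no overlap. That call was lost in 3 of the 10 other settings, and without the mock or the IFN library numbered 1 or 2 (highest adjusted p 0.226). XRCC6 differed by -0.01 there. The difference between the responses of the 2 neighbours was not tested. MCM4, ABHD13 and TMEM167A did not pass limma's threshold in any IFN comparison. With the block, MCM4 passed with siFLuc at 8 h (difference -0.38, adjusted p = 0.0189), against 21.0% of all genes. TMEM167A passed with the block with siFLuc at 12 h (difference -0.34, adjusted p = 0.0406), against 26.9%.

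**Figure D4:**
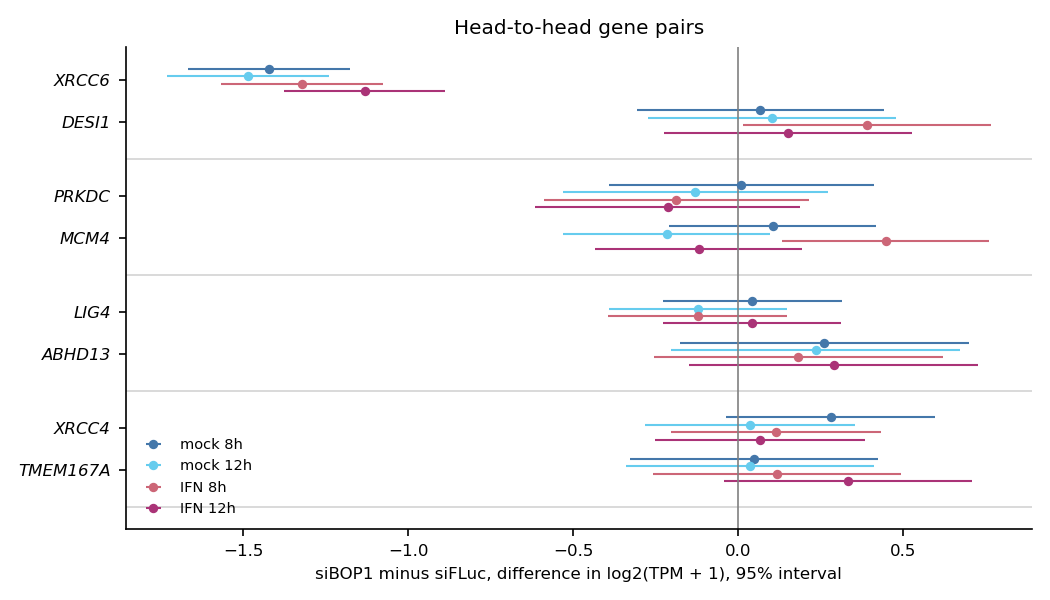
Differences in log2(TPM + 1) between siBOP1 and siFLuc (horizontal axis) for 4 end-joining genes and the gene that starts beside each on the opposite strand; points are limma estimates, bars are 95% intervals and colours give treatment and time. XRCC6 lies at -1.49 to -1.13, values that chose the gene and are a description, and its neighbour DESI1 lies at 0.07 to 0.39.

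XRCC6 has processed pseudogenes, and how reads shared with them were assigned is not given in the sources used here. XRCC6P2 reached at most 5.38 TPM and XRCC6P1, XRCC6P3, XRCC6P4 and XRCC6P5 at most 0.245 TPM, against at least 99.1 TPM for XRCC6. XRCC6P2 averaged 4.49 ± 0.528 TPM (SD, n = 3) with siFLuc and 2.13 ± 0.159 TPM (SD, n = 3) with siBOP1 in mock cells at 8 h. Its log2 differences were -0.81, -1.03, -1.36 and -0.86, given as a description because reads of XRCC6 and this copy may be shared. The annotated transcript of XRCC6P2 (1822 bases) holds GCCAGTT 0 times. DCLRE1CP1, a copy of the Artemis gene, is listed at 0 in all 24 libraries.

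The transcripts most like XRCC6 over the 24 libraries were found by Pearson r of log2(TPM + 1) among 11471 genes with at least 5 TPM in a group. They were YWHAZ (a 14-3-3 protein, r = 0.99), ATP5F1C (a subunit of ATP synthase, 0.97), CYFIP1 (0.97), CHCHD5 (0.97) and RPSA (a protein of the small ribosomal subunit, 0.97), and BOP1 came sixth (0.96). The least alike were HINT1 (-0.96), RPN2 (-0.96) and VAMP3 (-0.95). The gap between the 2 siRNAs enters these values, how much of them it makes was not tested, and they carry no p. With each group's mean removed, r was 0.75 for YWHAZ, 0.62 for BOP1, 0.48 for ATP5F1C and for CYFIP1, 0.25 for CHCHD5 and 0.21 for RPSA. It was -0.61 for RPN2, -0.58 for HINT1 and -0.20 for VAMP3. XRCC5 came 1421st, with r = 0.41 over all libraries and 0.41 within groups, and the other 6 members lay between -0.32 (XRCC4) and 0.40 (NHEJ1) over all libraries.

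Genes around the pathway were read from 4 lists: 12 end-joining accessory factors, 15 genes of break signalling and end protection, 7 of alternative end joining and 16 of homologous recombination. All 50 were tested, and 0 passed limma's threshold in any of the 4 siRNA comparisons, against 2.16%, 1.6%, 2.0% and 0.66% of all genes. At an unadjusted p under 0.05 the counts were 2, 2, 5 and 1 of 50, with no share of all genes to set beside them. With the library number as a block they were 0, 3 (MDC1, SHLD1 and EXO1), 4 (POLM, TDP1, MAD2L2 and RAD50) and 2 (EXO1 and PALB2), genes named after their values were seen, against blocked shares of 8.49%, 7.66%, 8.81% and 3.77% of all genes. The median log2 difference of the 50 was 0.05, -0.07, -0.03 and -0.06, beside 0.03, 0.00, -0.01 and -0.01 for all genes.

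Under IFN more of the 50 related genes had differences below 0 than above it, and the median of all genes was below 0 as well. The number below 0 was not counted over all genes. By limma's threshold 3, 4, 3 and 2 of 50 rose (siFLuc 8 h and 12 h, siBOP1 8 h and 12 h), against 5.77%, 7.06%, 5.99% and 7.17% of all genes. In the same order 0, 2, 5 and 3 fell, against 5.07%, 6.43%, 9.11% and 7.58% of all genes. Below 0 were 35, 35, 42 and 39 of 50, with medians of -0.12, -0.13, -0.23 and -0.16 beside -0.09, -0.06, -0.14 and -0.08 for all genes. Median-of-ratios rescaling, which moves the median of all genes at siBOP1 8 h to -0.01, left 28, 28, 34 and 33 of 50 below 0. Of the accessory factors, 2 of 12 rose and 0 fell with siFLuc at 8 h and again at 12 h. With siBOP1, 2 rose and 3 fell at 8 h, and 1 rose and 1 fell at 12 h. The member called each time was PARP3, an ADP-ribosyltransferase that acts with Ku and APLF at breaks. PARP3 measured 10.2, 7.34 and 6.24 TPM in siFLuc mock cells at 8 h and 20.4, 17.0 and 16.4 TPM under IFN. Its log2 differences were 1.11, 1.67, 1.54 and 1.48 (siFLuc 8 h and 12 h, siBOP1 8 h and 12 h; standard error 0.18), with limma adjusted p at or under 0.000133. TDP2, which removes trapped topoisomerase II from DNA ends, rose by 0.45, 0.36 and 0.45 in the first 3, and differed by 0.33 in the fourth (adjusted p = 0.064, and 0.00336 with the block). TDP1, which clears trapped topoisomerase I, fell by 0.42 and 0.47 with siBOP1. WRN differed by -0.55 with siBOP1 at 8 h (limma adjusted p = 0.0344). Its differences were -0.24 and -0.01 with siFLuc at 8 h and 12 h and -0.26 with siBOP1 at 12 h. Fits without 1 library are not given for WRN. The TDP2 call at siFLuc 8 h was lost without the mock library numbered 2 (adjusted p = 0.0785), that at siFLuc 12 h in 4 of 6 fits without 1 library, and those of TDP1 in 5 of 6 and 4 of 6.

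In break signalling, NBN, a subunit of the MRN complex that senses breaks, rose in all 4 comparisons. NBN measured 29.6, 29.1 and 33.3 TPM in siFLuc mock cells at 8 h and 65.1, 62.5 and 68.8 TPM under IFN, with no overlap. Its log2 differences were 1.07, 1.01, 1.14 and 1.11 (standard error 0.19, limma adjusted p at or under 0.000627), and with only the groups compared the adjusted p at siFLuc 12 h was 0.0946. Its partner RAD50 fell by 0.46 with siBOP1 at 8 h (adjusted p = 0.0113) and differed by -0.11, -0.16 and -0.14 in the others. The RAD50 call was lost without the IFN library numbered 4 (adjusted p = 0.0685). MAD2L2, a shieldin subunit, fell by 0.42 with siFLuc and by 0.39 with siBOP1 at 12 h, and each call was lost in 5 of 6 fits without 1 library. Over the 15 genes 1 rose in each comparison, and 0, 1, 1 and 1 fell. Of all genes, 5.77% to 7.17% rose and 5.07% to 9.11% fell in these comparisons.

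Alternative end joining had 0 of 7 called in each IFN comparison by limma, against 10.8%, 13.5%, 15.1% and 14.8% of all genes. At an unadjusted p under 0.05, where the share of all genes was not counted, the counts were 0, 2, 1 and 2. With the block 1, 3, 3 and 3 were lower. Of the 16 genes of homologous recombination, 0 passed at siFLuc 8 h. At siFLuc 12 h, siBOP1 8 h and siBOP1 12 h, 1, 0 and 0 rose, against 7.06%, 5.99% and 7.17% of all genes. There 1, 1 and 1 fell, against 6.43%, 9.11% and 7.58% of all genes. BRCA2 rose by 1.08 with siFLuc at 12 h (standard error 0.32, adjusted p = 0.0274), EXO1 fell by 0.71 at 12 h with either siRNA, and XRCC2 fell by 0.50 with siBOP1 at 8 h. Without 1 library at a time the BRCA2 call was lost in 3 of 6 fits, those of EXO1 in 3 of 6 (siFLuc) and 4 of 6 (siBOP1), and that of XRCC2 in 4 of 6. With the block, 8, 15, 16 and 16 of the 50 passed in the 4 IFN comparisons, against 3, 6, 8 and 5 without it and blocked shares of 21.0%, 26.9%, 29.0% and 27.9% of all genes. Of these, 4, 4, 3 and 4 were higher and 4, 11, 13 and 12 were lower, beside 8.24%, 11.2%, 8.56% and 11.4% of all genes higher and 12.7%, 15.8%, 20.4% and 16.6% lower. RAG1, RAG2 and DNTT, the lymphocyte enzymes of V(D)J recombination, summed to at most 0.704 TPM and were not tested.

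**Figure D5:**
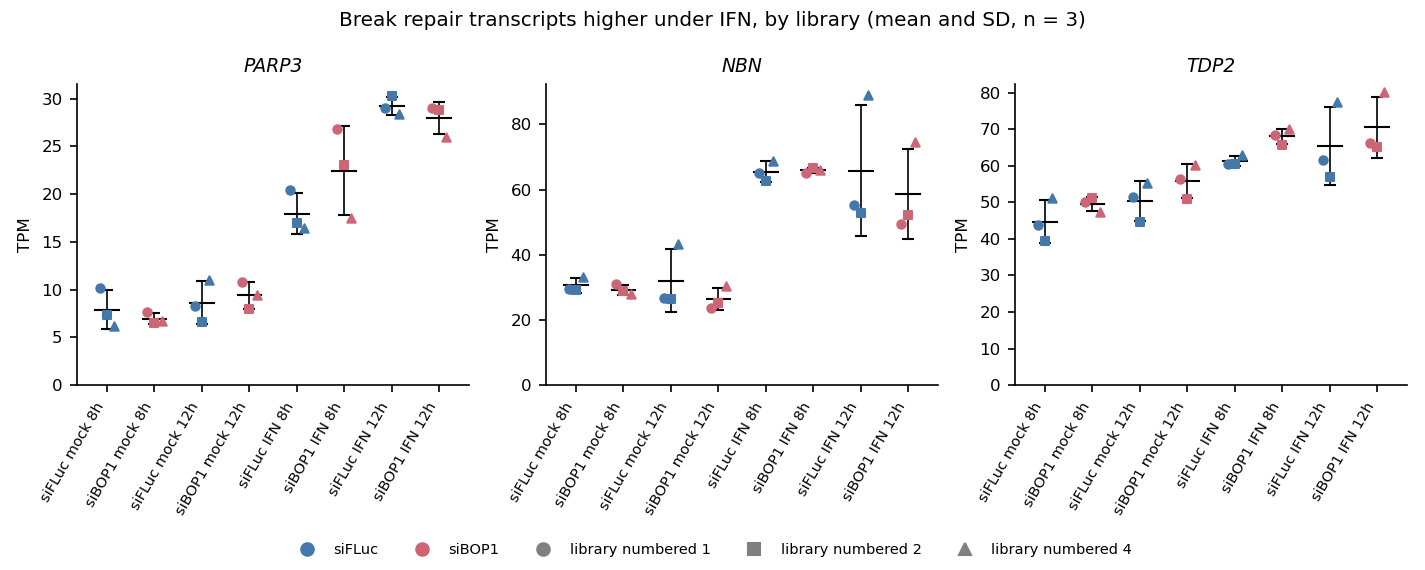
TPM (vertical axes, starting at 0) of PARP3, NBN and TDP2 in every library, by group; points are libraries, horizontal bars are group means and error bars are the SD (n = 3). All libraries of PARP3 and NBN under IFN lie above all mock libraries, with NBN at 23.8 to 43.2 TPM in mock cells and at 49.3 to 88.9 TPM under IFN.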

How the data were processed

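The table analysed holds TPM values for 24 libraries as deposited by the authors. The aligner, quantifier, genome build and annotation are not given in the sources used here. Per the labels, library preparation used a stranded mRNA kit. TPM keeps no depth, so no counting error can be given. Of the columns, 16 matched a sample by number, and 8, numbered 4 where the labels number replicates up to 3, matched a group. Values were taken as log2(TPM + 1). The 16062 genes that reached 1 TPM in 3 or more libraries were fitted with limma 3.58.1 in R 4.3.3 (eBayes with trend, 1 mean per group, no block), and p-values were adjusted by Benjamini-Hochberg over all of them. Same-numbered libraries deviated together, with r across genes from 0.115 to 0.508 over 24 pairs of columns, so the column number was taken to pair them, and a fit with it as a block within each time was also made, except for the comparisons between times, which such a block cannot test. The pairing rests on these correlations, not on a label. Text names the 8 members, BOP1, opposite-strand neighbours, the 5 most and 3 least similar genes, and at most 4 called genes per list with at least 5 TPM. Members and lists were chosen with earlier results of these data known. Alternatives changed the pseudocount, filter, scaling, trend, libraries and block. The leukocyte marker sum and the related genes that carry the 3′ UTR word are not reported here.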

Additional observations from a re-analysis of the deposited data

How the results depend on the processing

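The siRNA differences of XRCC6 stayed between -1.57 and -1.04 under the 10 other settings and with each library left out. The ratio to XRCC5, the 0 siRNA calls among the other members and all time and interaction counts stayed within the spread or at their count wherever they were recomputed. With the replicate block on the column number, calls among the 8 members under IFN became 1, 2, 1 and 2 (siFLuc 8 h and 12 h, siBOP1 8 h and 12 h) from 0, 0, 0 and 1, calls among the 50 related genes became 8, 15, 16 and 16 from 3, 6, 8 and 5, and siRNA calls among these 50 became 3, 4 and 2 (mock 12 h, IFN 8 h and 12 h) from 0. With the libraries numbered 1 and 2 alone, member calls under IFN were 1, 1 and 2 at siFLuc 8 h, at siFLuc 12 h and at siBOP1 12 h, and with the replicate block on those libraries 1, 1, 1 and 2 in the 4 comparisons. The replicate block changed no other call among the members. The replicate block is not given for the comparisons between times, since its numbers lie within a time. Quantile normalization gave 1, 3 and 2 member calls at siFLuc 8 h, at siFLuc 12 h and at siBOP1 12 h, and 5 of the 50 at siBOP1 8 h. Median-of-ratios rescaling gave 1 at siFLuc 8 h, 0 at siBOP1 12 h, and 3 of the 50 at siBOP1 8 h. A pseudocount of 0.1, no filter, no trend, or only the groups compared gave 0 members at siBOP1 12 h. No filter gave 2 of the 50 at siFLuc 12 h and 5 at siBOP1 8 h, and only the groups compared gave 1 at siFLuc 12 h and 3 at siBOP1 12 h. Apart from the replicate block over all libraries, the shares of all genes called under these settings are not given here. The same holds for the fits without 1 library. Changes in these counts thus cannot be set against the change over all genes. The cause was not tested.

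Of 61 gene values checked, 53 kept their sign throughout. XRCC5 in mock cells at 12 h turned to 0.0868 between the siRNAs with the libraries numbered 1 and 2 alone, with or without the replicate block. Under IFN with siBOP1 at 8 h, median-of-ratios rescaling turned XRCC6 to 0.15, XRCC5 to 0.0411, PAXX to 0.0559 and MAD2L2 to 0.0179, and the libraries numbered 1 and 2 alone turned DCLRE1C to -0.0197 in both fits. At siBOP1 12 h XRCC6 turned to -0.026 under quantile normalization and to -0.0286 with the libraries numbered 1 and 2 alone in both fits. None of these values was called.

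Leaving out 1 library at a time gave 0 to 1 member calls at siFLuc 8 h (1 without the IFN library numbered 4), 0 to 1 at siFLuc 12 h (1 without the mock or the IFN library numbered 4) and 0 to 2 at siBOP1 12 h. The XRCC5 difference in mock cells at 12 h then ran from -0.148 to 0.026, that of XRCC6 under IFN with siBOP1 from -0.102 to 0.0812 at 8 h and from -0.0495 to 0.137 at 12 h, that of DCLRE1C with siBOP1 at 8 h from -0.0463 to 0.565, and that of EXO1 with siFLuc at 8 h from -0.363 to 0.0224. TPM gives no depth, so precision rests on 3 libraries a group.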
